A study of Homo sapiens with 6 samples.

Results

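SON, SRRM2 and SRRM1 encode large arginine- and serine-rich proteins of nuclear speckles, and 1063 of the 464799 RNA binding sites in the 6 deposited lists lay within these genes. A site was counted for a gene when its midpoint fell in the gene's span on the plus strand of hg19, the human genome build of the lists. The SON span was chr21:34915350-34949812, the SRRM2 span chr16:2802330-2822539 and the SRRM1 span chr1:24969594-24999772. SON held 483 sites over 34.463 kb, SRRM2 529 sites over 20.21 kb and SRRM1 51 sites over 30.179 kb. SON and SRRM2 were chosen because they lie in some of the densest windows of the FXR2 and wild-type FMR1 isoform 7 lists, so their high density in those lists is a description and not a finding. SRRM1 was added as a related gene and was not chosen by its own density.

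The sites came from PAR-CLIP, in which 4-thiouridine is built into the RNA of living cells, ultraviolet light crosslinks it to proteins in contact with it, and the RNA pulled down with a tagged protein is sequenced. All 6 stable lines were FlpIn T-REx HEK293 cells, a human embryonic kidney line with a single inducible integration site, and each carried 1 FLAG- and HA-tagged transgene. The immunoprecipitated proteins were FXR1, FXR2, the I304N mutant of FMR1 as isoform 7 (I304N iso7) and as isoform 1 (I304N iso1), and FMR1 without that change as isoform 7 (WT iso7) and as isoform 1 (WT iso1). All lines received 1 µg/ml doxycycline to induce the transgene, together with 100 µM 4-thiouridine for 16 h, and were irradiated at 365 nm. The proteins were therefore expressed from an induced transgene in a kidney line, possibly above their usual level, which was not measured here. The labels do not say whether a line was 1 clone.

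Each group had 1 library, so no difference below has a replicate check and no p-value was computed. Intervals are exact, at 95%, and cover counting error only. They treat each site as a separate count, although sites can share a name stem, the part of the site name before the first dot. They cannot show whether a second library of the same protein would give the same value. Library and protein cannot be told apart in any comparison. The lists held 9017 sites for FXR1, 34521 for FXR2, 88644 for I304N iso7, 132219 for I304N iso1, 78495 for WT iso7 and 121903 for WT iso1. To set lists of unlike length side by side, site numbers were scaled to 100000 sites of the library, called scaled sites below. No source used here gives the reads behind a site, so a site counts the same whether few or many reads support it, and site numbers also move with sequencing depth, transcript level and the caller.

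Nuclear speckles are bodies in the nucleus that store and modify splicing factors. SON and SRRM2 are large scaffold proteins of these bodies, and SON also supports the splicing of transcripts with weak splice sites. SRRM1 and SRRM2 were first described as splicing coactivators that act with SR proteins. FMR1 is the RNA-binding protein lost in fragile X syndrome, FXR1 and FXR2 are its paralogs, and all have KH domains that bind RNA. The I304N change lies in the second KH domain of FMR1 and is known from a patient with a severe form of the syndrome. FMR1 is mostly cytoplasmic and is best known for binding coding sequence of mRNAs, and the sites lie on the RNAs of these genes and say nothing of the speckle proteins.

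Most of the SON and SRRM2 messages is 1 long exon. In the GENCODE 29 transcript of each gene with the longest coding sequence, taken from build GRCh38 and used for lengths and letters only, exon 3 of SON has 5916 nt and makes up 67.1% of 8813 nt. Exon 11 of SRRM2 has 6701 nt, which is 71.6% of 9353 nt. SRRM1 is built otherwise, with 18 exons, of which the longest, exon 15, has 465 nt or 15.0% of 3110 nt. Among 19088 genes these longest exons rank at the 96.1, 97.2 and 19.2 percentile, and the median gene's longest exon has 1143 nt. The median over 23 other nuclear speckle and splicing genes was 1263 nt.

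Short motifs reported for FMR1, ACTG or ACTT and AGGA or TGGA in DNA letters, were counted in the coding sequences on the sense strand. SON had 5.77 per kb of ACTG or ACTT and 16.6 per kb of AGGA or TGGA, against medians of 7.94 and 15.9 per kb over all genes. SRRM2 had 4.24 and 9.69 per kb, and SRRM1 had 4.02 and 11.7 per kb. The speckle list had medians of 4.73 and 18.5 per kb. In none of the 3 genes was ACTG or ACTT above the gene median, and AGGA or TGGA was above it in SON only, at the 55.6 percentile. To show what these sequences look like, the 120 coding nt of the longest exon with the most motifs are given for each gene, with the motif letters in capitals.
SON, coding positions 4052 to 4171: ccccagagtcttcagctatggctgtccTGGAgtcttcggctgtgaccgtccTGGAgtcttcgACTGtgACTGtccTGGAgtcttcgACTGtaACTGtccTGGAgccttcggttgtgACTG
SRRM2, coding positions 3413 to 3532: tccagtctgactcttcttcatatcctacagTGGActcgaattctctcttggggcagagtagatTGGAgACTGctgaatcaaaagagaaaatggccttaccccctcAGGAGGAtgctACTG
SRRM1, coding positions 2087 to 2206: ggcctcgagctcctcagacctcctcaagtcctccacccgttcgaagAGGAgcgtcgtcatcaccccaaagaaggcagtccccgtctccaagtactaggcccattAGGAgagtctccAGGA
The SON stretch holds 9 motifs, and its repeated tccTGGAgtcttcg unit carries most of the TGGA matches. The SRRM2 stretch holds 6 and the SRRM1 stretch 3. Each was picked as the richest of its exon, and the exons differ in length, so these numbers show the letters and do not rank the genes. The sequences come from GRCh38 and the sites from hg19, so no site was placed on these letters, and motifs inside the sites were not analysed here.

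Scaled SON sites were highest in FXR1 and FXR2 and lowest in I304N iso1. SON had 41 sites in FXR1, 109 in FXR2, 68 in I304N iso7, 76 in I304N iso1, 96 in WT iso7 and 93 in WT iso1. Scaled, these were 455 in FXR1 (326 to 617), 316 in FXR2 (259 to 381), 76.7 in I304N iso7 (59.6 to 97.2), 57.5 in I304N iso1 (45.3 to 71.9), 122 in WT iso7 (99.1 to 149) and 76.3 in WT iso1 (61.6 to 93.5). FXR1 and FXR2 stood above all 4 FMR1 libraries with no overlap of intervals, while their own intervals overlapped. WT iso7 stood above the other 3 FMR1 libraries, whose intervals overlapped with each other. The FXR2 and WT iso7 lists helped to choose SON, so their place here is a description. FXR1 is not separate from that choice, since FXR2 sites overlapped 74.4% of all FXR1 sites. The highest scaled number was 7.91 times the lowest. SON alone held 25.3% of all FXR1 sites and 22.9% of all FXR2 sites on chromosome 21, against 3.94% to 7.74% in the FMR1 libraries.

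For SRRM2 the order of scaled sites differed from that of SON only in that FXR2 came before FXR1. FXR1 was close to the isoform 7 libraries. SRRM2 had 18 sites in FXR1, 100 in FXR2, 117 in I304N iso7, 82 in I304N iso1, 117 in WT iso7 and 95 in WT iso1. Scaled, these were 200 in FXR1 (118 to 315), 290 in FXR2 (236 to 352), 132 in I304N iso7 (109 to 158), 62.0 in I304N iso1 (49.3 to 77.0), 149 in WT iso7 (123 to 179) and 77.9 in WT iso1 (63.1 to 95.3). The interval of FXR1 overlapped with those of FXR2 and of both isoform 7 libraries. Both isoform 7 libraries stood above both isoform 1 libraries with no overlap of intervals. The FXR2 and WT iso7 lists helped to choose SRRM2 too, so their place here is a description.

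SRRM1 had far fewer sites, and its scaled numbers were close to each other when lists were scaled by length. It had 1 site in FXR1, 5 in FXR2, 10 in I304N iso7, 15 in I304N iso1, 9 in WT iso7 and 11 in WT iso1. Scaled, these were 11.1, 14.5, 11.3, 11.3, 11.5 and 9.02 in the same order, and the highest was 1.61 times the lowest. Under median-of-ratios scaling they were 6.62, 10.9, 16.9, 14.2, 14.0 and 7.27, a wider range in another order. All 6 length-scaled intervals overlapped, and with 1 and 5 sites a moderate difference in FXR1 or FXR2 was not detectable at this depth.

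**Figure D1:**
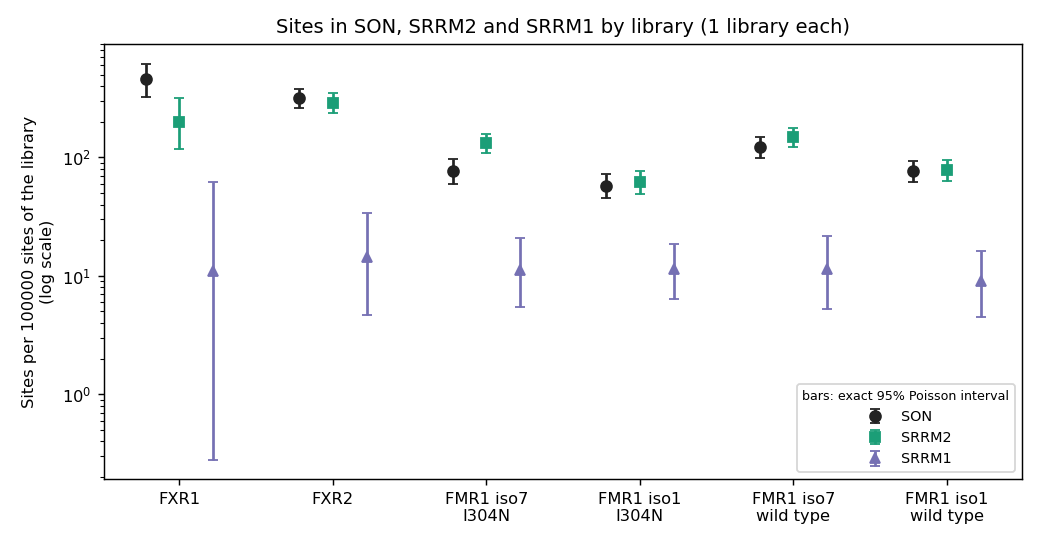
Scaled sites (per 100000 sites of the library, log axis) in SON, SRRM2 and SRRM1 for each of the 6 libraries, 1 library each, with exact 95% Poisson intervals. SON reached 455 in FXR1 and 57.5 in I304N iso1, whereas SRRM1 stayed between 9.02 and 14.5.

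Per kb of span, scaled sites in SON ran from 1.67 in I304N iso1 to 13.2 in FXR1, in SRRM2 from 3.07 in I304N iso1 to 14.3 in FXR2, and in SRRM1 from 0.299 in WT iso1 to 0.480 in FXR2. SRRM2 over SON, per kb, was 0.749 in FXR1 (0.405 to 1.33), and 1.56 in FXR2 (1.18 to 2.07), 2.93 in I304N iso7 (2.16 to 4.02), 1.84 in I304N iso1, 2.08 in WT iso7 and 1.74 in WT iso1. SRRM2 was thus the denser gene in 5 of 6 libraries, and FXR1 was the exception, with an interval that spans 1. SON over SRRM1, per kb, was 4.44 to 9.34 in the FMR1 libraries, 19.1 in FXR2 and 35.9 in FXR1, where SRRM1 had a single site. Spans include introns, so these are densities over the gene and not over its message.

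Among 50 kb windows of each strand, the window of SON ranked 3 by site number in FXR1, 1 in FXR2, 77 in I304N iso7, 91 in I304N iso1, 16 in WT iso7 and 67 in WT iso1. The window of SRRM2 ranked 29, 2, 7, 59, 5 and 62 in the same order. The ranks in FXR2 and WT iso7 belong to the choice of the genes. SRRM1 ranked between 1349 and 2952, so it was far from the densest windows in every library.

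The sites kept to the transcribed strand and to the genes. On the minus strand of the spans there were 0 sites for SON, 2 for SRRM2 (1 in each I304N library) and 0 for SRRM1. The 10 kb before each span held 0 sites on the plus strand in all 6 libraries, and the 10 kb after it held 6 for SON, 1 for SRRM2 and 0 for SRRM1. Sites flagged as repeats numbered 33 in SON, 31 in SRRM2 and 0 in SRRM1. Of SON sites they made up 2.44% in FXR1, 2.75% in FXR2 and 11.8% in I304N iso7. In I304N iso1, WT iso7 and WT iso1 the SON shares were 10.5%, 4.17% and 9.68%. For SRRM2 the shares were 0%, 3%, 6.84%, 7.32%, 6.84% and 6.32% in the same order of libraries. Over all sites of each library they were 6.11%, 3.91%, 3.48%, 3.03%, 4.51% and 5.35%.

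Within SON and SRRM2 the sites were concentrated in a few stretches. A dense stretch was a run of 1 kb bins with at least 20 sites each over the 6 libraries, a definition made after the sites had been seen. SON had 3 of them, 6 to 12 kb, 14 to 17 kb and 33 to 34 kb from the start of the span, and SRRM2 had 2, at 9 to 16 kb and 18 to 19 kb. The first SON stretch, chr21:34921350-34927349, is 6000 nt long, and the SON transcript's longest exon has 5916 nt. The first SRRM2 stretch, chr16:2811330-2818329, is 7000 nt long, and the longest SRRM2 exon has 6701 nt. Stretches are runs of whole 1 kb bins, so their lengths can match an exon only roughly. Whether the stretches are those exons was not tested, since no hg19 annotation was used. SRRM1 had at most 11 sites in a bin, below the 20 asked for, and so had no dense stretch.

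**Figure D2:**
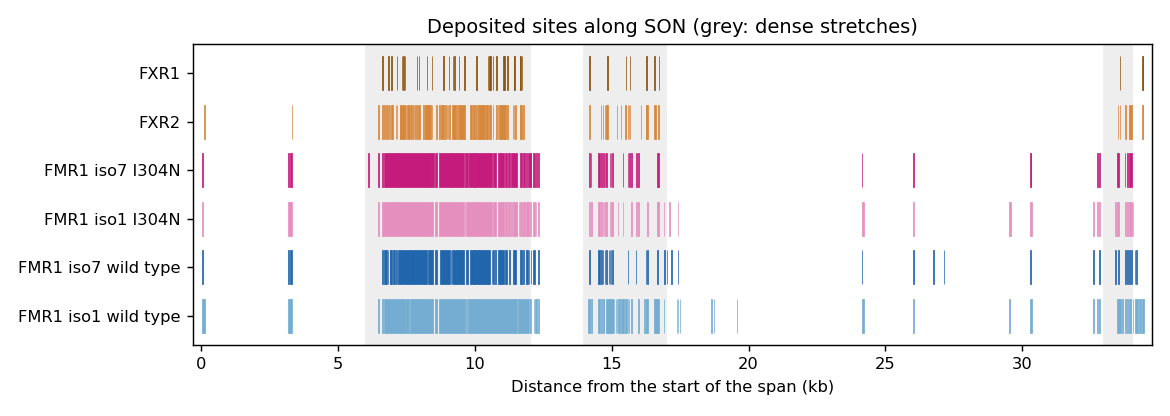
Every deposited site on the SON span, by distance from the span start (kb), 1 row per library, with dense stretches in grey and narrow sites widened to the line width. FXR1 and FXR2 sites lay almost all in the grey stretches, and only FMR1 libraries had sites between 17 and 33 kb.

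The first SON stretch took most FXR1 and FXR2 sites and a smaller share of the FMR1 sites. It held 31 of 41 SON sites in FXR1 (75.6%, 59.7 to 87.6), 79 of 109 in FXR2 (72.5%, 63.1 to 80.6), 31 of 68 in I304N iso7 (45.6%, 33.5 to 58.1), 29 of 76 in I304N iso1 (38.2%, 27.2 to 50.0), 55 of 96 in WT iso7 (57.3%, 46.8 to 67.3) and 24 of 93 in WT iso1 (25.8%, 17.3 to 35.9). The intervals of FXR1 and FXR2 lay above those of both I304N libraries and of WT iso1, and overlapped with that of WT iso7.

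FMR1 sites in that stretch were wide and lay close together, so that few sites covered much of it. Sites covered 9.57% of the stretch in FXR1, 44.4% in FXR2, 80.2% in I304N iso7, 80.5% in I304N iso1, 63.3% in WT iso7 and 83.9% in WT iso1. WT iso1 therefore had the fewest sites in the stretch and the most of it covered. Counted by covered nucleotides, the stretch took 72.5% of what FXR1 covered in SON, 79.7% for FXR2, 80.3% for I304N iso7, 75.3% for I304N iso1, 77.6% for WT iso7 and 65.1% for WT iso1. On that scale the wide gap between FXR and FMR1 libraries seen in site numbers was not present.

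The second SON stretch held fewer sites than the first in every library but WT iso1. This stretch, chr21:34929350-34932349, held 7 sites in FXR1, 21 in FXR2, 19 in I304N iso7, 20 in I304N iso1, 16 in WT iso7 and 32 in WT iso1. Its share of SON sites was 16.7% to 34.4% over the libraries. The third, near the end of the span, held 1 site in FXR1, 4 in FXR2, 4 in I304N iso7 and 6 in each of the other 3 FMR1 libraries.

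Between 17 and 33 kb of SON, chr21:34932350-34948349, sites came from FMR1 libraries only. There were 0 of 41 SON sites there in FXR1 and 0 of 109 in FXR2, with exact intervals up to 8.60% and 3.33%. I304N iso7 had 6 of 68 (8.82%, 3.31 to 18.2), I304N iso1 had 12 of 76 (15.8%, 8.43 to 26.0), WT iso7 had 10 of 96 (10.4%, 5.11 to 18.3) and WT iso1 had 13 of 93 (14.0%, 7.66 to 22.7). As scaled sites the FMR1 libraries had 6.77 to 12.7 there, against an exact upper limit of 40.9 in FXR1 and 10.7 in FXR2. A level like that of FMR1 was thus not detectable in FXR1 at its depth, and in FXR2 the limit lies within the range of the FMR1 libraries. Sites there fell into 19 merged regions, of which 4 held all 4 FMR1 libraries, at chr21:34939483-34939569, chr21:34941360-34941389, chr21:34945631-34945700 and chr21:34948163-34948199.

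The first SRRM2 stretch took most sites in every library. It held 18 of 18 SRRM2 sites in FXR1 (100%, 81.5 to 100), 92 of 100 in FXR2 (92%, 84.8 to 96.5), 93 of 117 in I304N iso7 (79.5%), 53 of 82 in I304N iso1 (64.6%, 53.3 to 74.9), 91 of 117 in WT iso7 (77.8%) and 75 of 95 in WT iso1 (78.9%). I304N iso1 had the lowest share and FXR1 the highest. Sites covered 5.37% of the stretch in FXR1, 36.4% in FXR2, 74.8% in I304N iso7, 86.7% in I304N iso1, 69.9% in WT iso7 and 76.5% in WT iso1. The library with the fewest FMR1 sites in the stretch, I304N iso1, was the one that covered most of it. The stretch at 18 to 19 kb held 0 sites in FXR1, 3 in FXR2, 9 in I304N iso7, 11 in I304N iso1, 8 in WT iso7 and 6 in WT iso1.

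**Figure D3:**
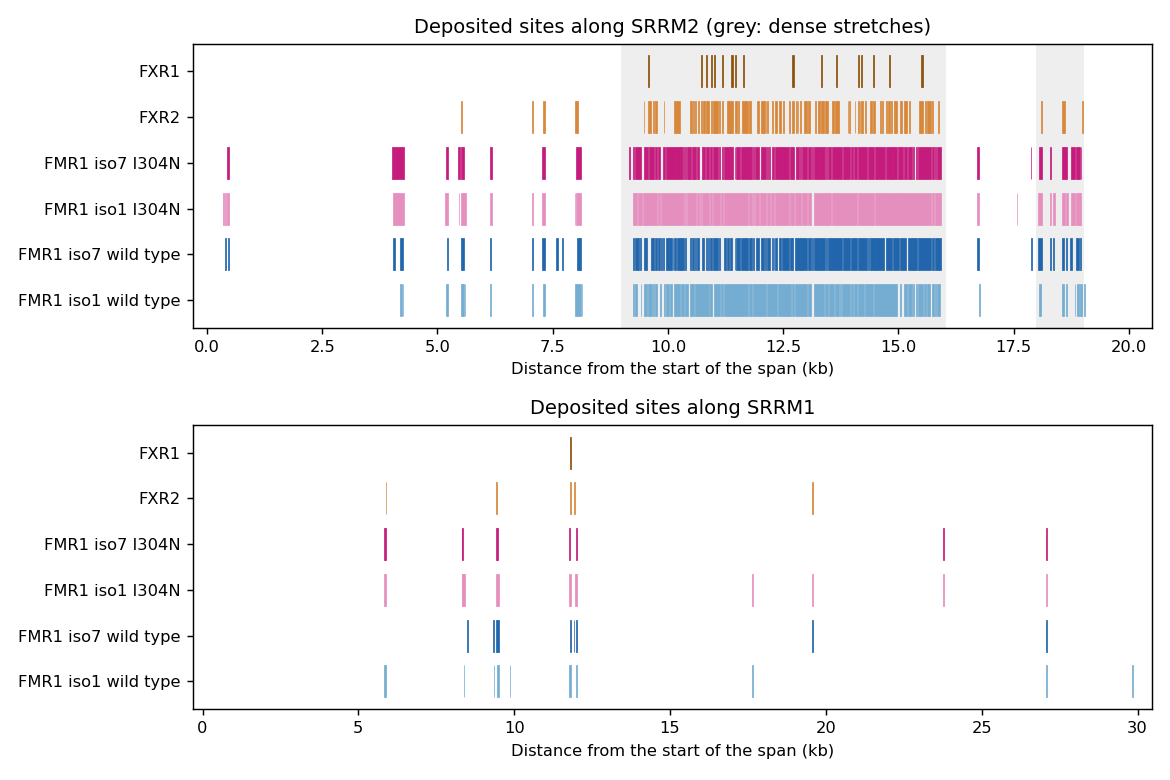
Every deposited site on the SRRM2 and SRRM1 spans, by distance from the span start (kb), 1 row per library, with the SRRM2 dense stretches in grey and narrow sites widened to the line width. The 4 FMR1 libraries covered 69.9% to 86.7% of the 9 to 16 kb stretch of SRRM2, and SRRM1 had 51 scattered sites.

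The 3 densest 1 kb bins of SON were chr21:34926350-34927349 with 53 sites over the libraries, chr21:34925350-34926349 with 49 and chr21:34929350-34930349 with 47. In the first of them FXR1 had 8 sites, FXR2 10, I304N iso7 9, I304N iso1 11, WT iso7 10 and WT iso1 5. For SRRM2 the densest bins were chr16:2812330-2813329 with 76 sites, chr16:2813330-2814329 with 74 and chr16:2814330-2815329 with 65. The first of these held 3 sites in FXR1, 15 in FXR2, 16 in I304N iso7, 9 in I304N iso1, 16 in WT iso7 and 17 in WT iso1. SRRM1 had at most 11 sites in a bin, at chr1:24978594-24979593, followed by chr1:24980594-24981593 with 9 and chr1:24977594-24978593 with 8. Of the bins, 23 of 35 in SON, 17 of 21 in SRRM2 and 10 of 31 in SRRM1 held a site of any library, and 10, 7 and 1 held sites of all 6.

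**Figure D4:**
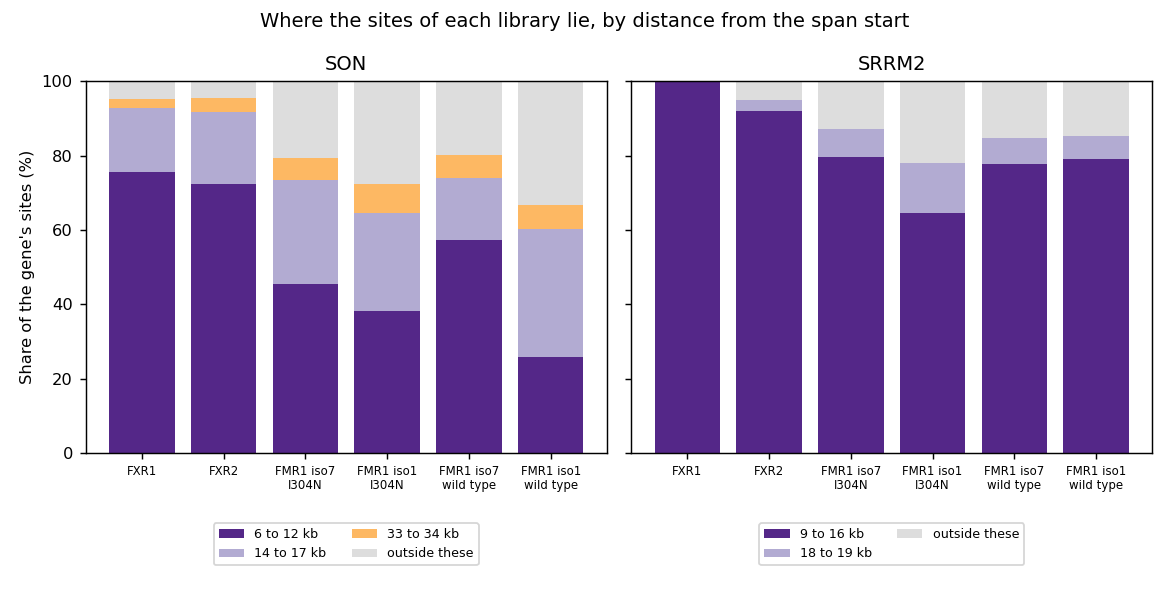
Share of each library's SON sites (left) and SRRM2 sites (right), in percent, that lay in each dense stretch or outside them. The 6 to 12 kb stretch of SON took 75.6% of FXR1 sites and 25.8% of WT iso1 sites.

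The wide FMR1 sites were a feature of SON and SRRM2 within their own libraries too. Median width in SON was 19 nt in FXR1, 24 in FXR2, 34.5 in I304N iso7, 36.5 in I304N iso1, 29 in WT iso7 and 41 in WT iso1, against medians of 20 to 24 nt over all sites of the libraries. In SRRM2 it was 20 nt in FXR1, 23 in FXR2, 38 in I304N iso7, 49 in I304N iso1, 34 in WT iso7 and 47 in WT iso1. In SRRM1 the medians were 20 to 26 nt, close to those of the libraries.

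Sites of at least 60 nt made up 0% of SON sites in FXR1, 8.26% in FXR2, 27.9% in I304N iso7, 26.3% in I304N iso1, 21.9% in WT iso7 and 31.2% in WT iso1. For SRRM2 the shares were 0% in FXR1, 1% in FXR2, 28.2% in I304N iso7, 40.2% in I304N iso1, 25.6% in WT iso7 and 34.7% in WT iso1. Over all sites the share was 0.0222% in FXR1, 0.154% in FXR2 and 1.51% to 6.35% in the FMR1 libraries. Wide sites were thus several times more frequent in both genes in the FMR1 libraries. In FXR2 they were more frequent in both genes too, with 9 wide sites in SON and 1 in SRRM2. The widest SON site was 1162 nt long in I304N iso7, chr21:34922547-34923708, and I304N iso1 had a site of 1160 nt that ended at the same base. The widest SRRM2 site, of 604 nt, was at chr16:2817439-2818042 in I304N iso1.

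I304N was compared with wild type within each isoform, as the comparison that addresses the effect of the KH domain change. Neither SON nor SRRM2 was past 2-fold in either isoform. In isoform 1 the ratio of scaled sites was 0.753 for SON (0.549 to 1.03), 0.796 for SRRM2 (0.585 to 1.08) and 1.26 for SRRM1 (0.540 to 3.03). Of all 50 kb windows, 20.4% were at least 2-fold lower and 29.9% at least 2-fold higher in that comparison. Among the dense windows, those with a mean of at least 40 scaled sites, 22.9% were lower and 2.94% higher by that much, and the median ratio was 0.739, near the values of SON and SRRM2. Under median-of-ratios scaling the direction was the other, with 1.17 for SON and 1.24 for SRRM2, and by covered nucleotides SRRM2 was at 1.19.

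In isoform 7, whose wild-type list helped to choose the genes, the I304N over wild-type ratio was 0.627 for SON (0.453 to 0.865), 0.886 for SRRM2 (0.679 to 1.15) and 0.984 for SRRM1 (0.359 to 2.74). By covered nucleotides the SON ratio was 0.894. Under median-of-ratios scaling it was 0.772, and SRRM2 turned to 1.09. In the first SON stretch I304N iso7 had 31 sites against 55 in WT iso7, a ratio of 0.499 (0.311 to 0.789), while I304N covered 80.2% of the stretch against 63.3% for the wild type. In the second SON stretch the ratio was 1.05 (0.512 to 2.19). At least 2-fold lower were 20.1% of all windows and 6.07% of the dense ones, and at least 2-fold higher were 21.4% and 10.6%.

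Isoform 7 was higher than isoform 1 in SRRM2 between the I304N libraries, with a counting interval above 1. The choice of genes did not use the I304N lists, but these are not separate from it. WT iso7 sites overlapped 41.9% of all I304N iso7 sites and 37.0% of all I304N iso1 sites. Between the I304N libraries the ratio was 2.13 for SRRM2 (1.59 to 2.86), 1.33 for SON (0.948 to 1.88) and 0.994 for SRRM1 (0.399 to 2.37). SRRM2 was past 2-fold, where 5.5% of all windows and 5.07% of the dense ones were at least 2-fold higher, and 16.3% and 0.282% at least 2-fold lower. The dense windows had a median ratio of 1.33, so SON was at the median of windows of its density and SRRM2 above it. By covered nucleotides SRRM2 was at 1.27. The 117 SRRM2 sites of I304N iso7 had 53 name stems and the 82 of I304N iso1 had 43, so the interval may be too narrow. With sites that share a name stem counted once, SRRM2 was not past 2-fold. In the first SRRM2 stretch the ratio of sites was 2.62 (1.85 to 3.74), with 74.8% of the stretch covered in I304N iso7 and 86.7% in I304N iso1.

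Between the wild-type libraries, of which WT iso7 helped to choose SON and SRRM2, the isoform 7 over isoform 1 ratio is given as a description. It was 1.60 for SON (1.19 to 2.16), 1.91 for SRRM2 (1.45 to 2.53) and 1.27 for SRRM1 (0.465 to 3.37). None was past 2-fold, where 21.3% of all windows were higher and 22.4% lower, and of the dense windows 9.54% and 13.1%. Under median-of-ratios scaling the ratios were 2.42 for SON and 2.89 for SRRM2. In the first SON stretch WT iso7 had 55 sites against 24 in WT iso1, a ratio of 3.56 (2.17 to 6.01), and in the second 16 against 32, a ratio of 0.777 (0.398 to 1.46). The higher number of WT iso7 sites in SON thus lay in the first stretch, of which WT iso7 covered 63.3% and WT iso1 83.9%.

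FXR1 gave more scaled sites than wild-type FMR1 isoform 1 in SON and SRRM2. The ratio was 5.96 for SON (4.02 to 8.69), 2.56 for SRRM2 (1.46 to 4.27) and 1.23 for SRRM1. In this comparison 31.5% of all windows and 40.5% of the dense windows were at least 2-fold higher, with a median of 1.76 among the dense ones, so a ratio past 2-fold was common. At least 2-fold lower were 46.5% of all windows and 4.36% of the dense ones. By covered nucleotides, each as a share of all that the library covered, the ratios were 2.04 for SON and 1.25 for SRRM2. In the first SON stretch the ratio of sites was 17.5 (9.92 to 31.1), with 9.57% of the stretch covered in FXR1 and 83.9% in WT iso1.

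FXR2 over WT iso1 was 4.14 for SON (3.11 to 5.52), 3.72 for SRRM2 (2.78 to 4.98) and 1.61 for SRRM1 (0.437 to 5.01). At least 2-fold higher were 14.1% of all windows and 15.9% of the dense ones, at least 2-fold lower 23.2% and 5.89%, and since the FXR2 list helped to choose the genes, nothing is read from this. By covered nucleotides the ratios were 2.16 for SON and 2.34 for SRRM2.

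Against WT iso7 the ratios were smaller. FXR1 was at 3.72 for SON (2.51 to 5.41), 1.34 for SRRM2 (0.767 to 2.21) and 0.967 for SRRM1, where 38.3% of all windows and 58.7% of the dense ones were at least 2-fold higher, and 46.7% and 11.3% at least 2-fold lower. By covered nucleotides FXR1 was at 1.63 for SON and, with the direction turned, 0.661 for SRRM2. FXR2 was at 2.58 for SON (1.94 to 3.43), 1.94 for SRRM2 (1.47 to 2.56) and 1.26 for SRRM1, where 20.5% of all windows and 27.7% of the dense ones were at least 2-fold higher, and 23.6% and 6.36% at least 2-fold lower. By covered nucleotides FXR2 was at 1.73 for SON and 1.23 for SRRM2.

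FXR1 over FXR2 was 1.44 for SON (0.980 to 2.08), 0.689 for SRRM2 (0.392 to 1.15) and 0.766 for SRRM1. All intervals included 1, and none of the genes was past 2-fold, where 32.9% of all windows were higher and 39% lower, and of the dense windows 24.2% and 6.49%. By covered nucleotides SON was at 0.943. The comparisons above share libraries, so they are not independent of each other. Those with FXR2 or WT iso7 use lists that helped to choose SON and SRRM2 and are a description.

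**Figure D5:**
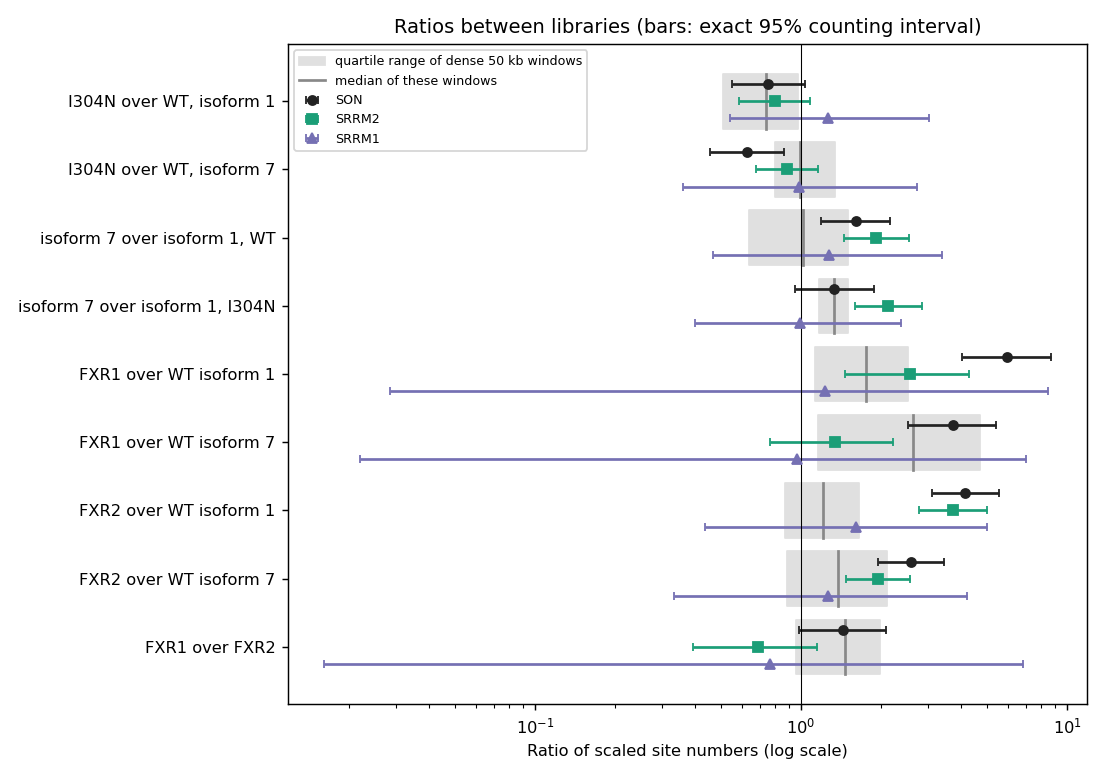
Ratios of scaled site numbers between libraries (log axis) for SON, SRRM2 and SRRM1, with exact 95% counting intervals, over the quartile range (grey bar) and median (grey line) of dense 50 kb windows. For I304N over wild type in isoform 1, SON and SRRM2 lay near the grey line, at 0.753 and 0.796; the FXR2 and WT iso7 lists helped to choose both genes, so their ratios with these lists are a description.

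The share of sites overlapped by another library was higher in SON and SRRM2 than over all sites for each ordered pair of libraries, except for FXR2 sites overlapped by FXR1 in SRRM2 (17% against 19.4%). Both genes hold dense stretches of which FMR1 sites covered most, and the shares were not adjusted for this, so they are a description. FXR2 sites overlapped 41 of 41 FXR1 sites in SON (100%, 91.4 to 100) and 18 of 18 in SRRM2 (100%, 81.5 to 100), against 74.4% of all FXR1 sites. Of these overlapping sites, 19.5% in SON and 16.7% in SRRM2 had both ends identical in FXR1 and FXR2. Among all FXR1 sites overlapped by FXR2 the share was 58.9%. Of the overlapping FXR1 sites, 53.7% in SON and 50% in SRRM2 began at the same base as an FXR2 site. FXR1 and FXR2 sites thus met in both genes, often with the same start, without mostly being the same interval.

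WT iso1 sites overlapped 97.6% of FXR1 sites and 96.3% of FXR2 sites in SON, and 100% and 97% of them in SRRM2, against 70.0% of all FXR1 and 64.4% of all FXR2 sites. Its sites covered 22.5% of the SON span and 29.5% of the SRRM2 span. In the first stretch of each gene, where most FXR1 and FXR2 sites lay, they covered 83.9% and 76.5%. The shares are not adjusted for this cover. WT iso1 sites overlapped 93.4% of I304N iso1 sites in SON and 82.9% in SRRM2, against 41.7% over all sites. WT iso7 sites overlapped 77.9% of I304N iso7 sites in SON and 89.7% in SRRM2, against 41.9% over all sites. When an overlap of at least 50% of both sites was asked for, WT iso1 met 4.88% of FXR1 sites in SON and 16.7% in SRRM2. At that setting a narrow site cannot match a much wider one, and the cause of the lower shares was not tested.

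Joining overlapping sites of all libraries gave 87 regions in SON, 69 in SRRM2 and 18 in SRRM1. Joined regions can chain sites that do not touch each other, so a region with all libraries does not mean 1 shared base. In SON 9 regions held all 6 libraries and 26 held a single one, 17 of them WT iso1. In SRRM2 9 held all 6, and 44 held all 4 FMR1 libraries, against 30 in SON. Regions with FXR1 or FXR2 and no FMR1 library numbered 1 in SON, 1 in SRRM2 and 0 in SRRM1. Regions with both I304N libraries and neither wild type numbered 0, 2 and 3 in SON, SRRM2 and SRRM1, and regions with both wild types and neither I304N numbered 3, 0 and 1. The shares of such regions over the whole lists are not given here, so these counts are a description and do not set the genes apart.

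Of the SON regions with all 6 libraries, 7 lay in or at the edge of the first stretch, at chr21:34921942-34921986, chr21:34922006-34923837, chr21:34924033-34925351, chr21:34925359-34926227, chr21:34926231-34926655, chr21:34926658-34926896 and chr21:34926984-34927408. The other two, chr21:34929469-34929547 and chr21:34930091-34930213, lay in the second stretch. The longest, chr21:34922006-34923837, held 78 sites, of which 10 were from FXR1, 32 from FXR2, 5 from each I304N library, 18 from WT iso7 and 8 from WT iso1. At chr21:34921942-34921986, 45 nt long, and at chr21:34929469-34929547, 79 nt long, every library had exactly 1 site.

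In SRRM2 the regions with all 6 libraries all lay in the first stretch. They were chr16:2811887-2811998, chr16:2813032-2813226, chr16:2813236-2813286, chr16:2813314-2813461, chr16:2813536-2814076, chr16:2814933-2815071, chr16:2815489-2815738, chr16:2815873-2816439 and chr16:2816446-2818042. The last, 1597 nt long, held 87 sites, of which 6 were from FXR1, 25 from FXR2, 19 from I304N iso7, 4 from I304N iso1, 17 from WT iso7 and 16 from WT iso1. SRRM1 had 1 region with all 6 libraries, chr1:24981360-24981416, 57 nt long, with 1 site of each library. The FXR1 site there, its only one in SRRM1, had both ends identical to an FXR2 site.

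The 50 kb windows whose profile over the 6 libraries was most like that of each gene were named by the Euclidean distance between centred log2(scaled sites + 1) values, over 2636 windows with a mean of at least 10 scaled sites. For SON these were chr21:43400001-43450000 on the minus strand at a distance of 0.43, chr11:10800001-10850000 on the minus strand at 0.50 and chrX:108250001-108300000 on the plus strand at 0.67, where the median window was at 3.34. For SRRM2 they were chr17:7400001-7450000 on the plus strand at 0.30, chrX:39900001-39950000 on the minus strand at 0.39 and chr17:45700001-45750000 on the plus strand at 0.50, with a median of 2.93. For SRRM1 they were chr1:151400001-151450000 on the minus strand at 0.20, chr12:112550001-112600000 on the plus strand at 0.20 and chr4:187600001-187650000 on the minus strand at 0.27, with a median of 2.57. The nearest window to SON held 28 sites in FXR1, 68 in FXR2, 48 in I304N iso7, 58 in I304N iso1, 53 in WT iso7 and 74 in WT iso1. The window chrX:108250001-108300000 held only 3, 5, 3, 5, 7 and 5 sites in that order, so its profile is imprecise. No gene name was given to these windows.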

How the data were processed

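Per the labels, PAR-CLIP used RNase T1 for 15 min at 22 °C and the FLAG tag for immunoprecipitation, and light of 0.15 J per square cm. Per the submitters' processing notes, the aligner was Bowtie 0.12.7 and the genome build hg19. The caller of sites was not given in the sources used here, nor were its thresholds and read numbers. The deposited lists give position, name, score and strand per site, and the deposited score is a flag, per the file headers, of 1000 outside repeats and 0 in repeats, so no height was used.

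Sites were assigned by midpoint and strand and scaled to 100000 per library. Poisson, Clopper-Pearson and conditional ratio intervals were computed with scipy 1.17.1 and numpy 2.4.6 in python 3.11.15, and checked on simulated data. They cover counting error only, and precision is lowest in FXR1. The background is strand-specific 50 kb windows with a mean of at least 2 scaled sites, a pseudocount of 1 added to each value, and calls at 2-fold. Overlap needs at least 1 nt on the same strand. The text names the 3 genes, the regions with all 6 libraries, the 3 densest bins per gene and the 3 nearest windows.

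The genes and lists were chosen with earlier results of these data known. No annotation of hg19 was used, so motifs in sites and sites in other nuclear speckle genes were not analysed here. The speckle list served only for the transcript lengths and motif densities from GENCODE 29. Alternatives covered scaling, assignment, overlap, filters and pseudocounts.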

Additional observations from a re-analysis of the deposited data

Results flagged for a closer look

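SRRM1 had ratios on either side of 1 in a pair of comparisons. I304N over wild type was 0.984 in isoform 7 and 1.26 in isoform 1, and isoform 7 over isoform 1 was 0.994 with I304N and 1.27 with wild type. These 4 ratios come from the same 4 libraries, with 10 and 15 SRRM1 sites in I304N isoforms 7 and 1 and 9 and 11 in wild-type isoforms 7 and 1. Under median-of-ratios scaling all 4 were above 1, at 1.21 and 1.95 for I304N over wild type in isoforms 7 and 1, and at 1.19 and 1.92 for isoform 7 over isoform 1 with I304N and wild type. Each interval of the length-scaled ratios includes 1, and the difference between the ratios was not tested.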

How the results depend on the processing

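No paired analysis was possible because each group has 1 library, and leaving out a replicate was not applicable. Counting whole sites only, any overlap with the span, leaving out repeat sites or scaling by sites outside the mitochondrial genome moved no gene's level or ratio past its counting interval. Counting error, largest for SRRM1 and FXR1, limits every ratio. The causes of the changes below were not tested. No ratio past 2-fold turned its direction.

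With covered nucleotides (per 100000 nt covered by the library) in place of sites, SON was at 464 in FXR2, 240 in I304N iso7, 173 in I304N iso1, 268 in WT iso7 and 215 in WT iso1. SRRM2 was at 388, 251, 197, 314 and 166 in that order. I304N over wild type became 0.894 for SON in isoform 7 and 1.19 for SRRM2 in isoform 1, and isoform 7 over isoform 1 with I304N became 1.27 for SRRM2. FXR1 over WT iso1 became 2.04 (SON) and 1.25 (SRRM2), over WT iso7 1.63 and 0.661, and over FXR2 0.943 (SON). FXR2 over WT iso1 became 2.16 and 2.34, and over WT iso7 1.73 and 1.23.

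Under median-of-ratios scaling SON was at 271 in FXR1, 238 in FXR2, 115 in I304N iso7, 72.0 in I304N iso1 and 61.4 in WT iso1. SRRM2 was at 218 in FXR2, 198 in I304N iso7, 77.6 in I304N iso1, 182 in WT iso7 and 62.8 in WT iso1. I304N over wild type in isoform 1 became 1.17 (SON) and 1.24 (SRRM2), and isoform 7 over isoform 1 in wild type 2.42 and 2.89. Over WT iso7, FXR1 became 1.82 and 0.656, and FXR2 1.60 and 1.20. In isoform 7, I304N over wild type became 0.772 and 1.09. For SRRM1, FXR1 over WT iso1 turned to 0.911 and FXR2 over WT iso7 to 0.781.

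With sites closer than 10 nt joined, FXR2 was at 241 (SON) and 223 (SRRM2), and SRRM2 was at 97.2 in I304N iso7, 40.03 in I304N iso1, 111 in WT iso7 and 54.3 in WT iso1. With sites that share a name stem counted once, an alternative chosen after seeing the data, SON was at 233 in FXR2, 96.3 in WT iso7 and 56.2 in WT iso1. SRRM2 was then at 218 in FXR2, 70.4 in I304N iso7, 38.4 in I304N iso1, 99.01 in WT iso7 and 39.999 in WT iso1, and over WT iso1 FXR1 became 5.001 and FXR2 5.46.

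With an overlap of at least 50% of both sites, FXR2 met 68.3% of FXR1 sites in SON and 72.2% in SRRM2, WT iso1 met 4.88% and 16.7%, and WT iso7 12.2% and 22.2%. Of FXR2 sites, WT iso1 met 11.9% and 27%, and WT iso7 27.5% and 32%. Of I304N iso7 sites, I304N iso1 met 79.4% and 47.9%, and WT iso7 61.8% and 68.4%. WT iso1 met 44.7% and 42.7% of I304N iso1 sites, and 21.9% and 43.6% of WT iso7 sites. Without FXR1, regions with every library numbered 16 in SON, 29 in SRRM2 and 2 in SRRM1. The background share past 2-fold moved under a filter of 40 scaled sites, no filter or a pseudocount of 5, and its values for dense windows stand beside the ratios.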
